A study of Mus musculus with 21 samples.

Results

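The comparison set liver tumours that arose in Trp53 knockout mice against liver from Trp53 knockout mice. Its members were the 6 arrays whose source label reads knockout liver tumour of HCC/CCC type and the 4 arrays whose label reads knockout liver, which made 10 of the 21 arrays in the series. KO tumours carried the Trp53 knockout on the C57BL/6J background, came from untreated mice, and were labelled as hepatocellular or cholangiocellular carcinoma without a call for each tumour. KO livers carried the same knockout on the same background, also untreated, so both groups shared the loss of Trp53. The 2 KO tumours whose titles share the number before the letter T were averaged, which left 5 KO tumour mice and 4 KO liver mice. The labels give no age, no sex, no statement of which cells lost Trp53, and no link between a tumour and a liver of the same animal. The other 11 arrays held 7 tumours that diethylnitrosamine (DEN), a liver carcinogen, induced in Trp53 wild-type mice given 10 µg per g of body weight at day 15, and 4 untreated wild-type (WT) livers. They entered here through the shared estimate of spread and, at the end, as a second tumour-to-liver difference.

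Trp53 encodes the transcription factor p53, which halts division or starts cell death after DNA damage and other stresses. Hepatocytes make most plasma proteins and carry out nitrogen, lipid, sugar and drug metabolism under a set of factors that includes Hnf4a, whereas cholangiocytes line the bile ducts and make keratins such as Krt19 and Krt7. Both cell types come from one precursor in the embryo, and liver cancers can carry features of either or of both.

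Each value below is a log2 signal. It is the log2 of the processed brightness of a 60-base probe minus the 75th percentile of all non-control probes on that array, so 0 means as bright as the probe at that percentile and 1 unit is 2-fold. Differences are KO tumour minus KO liver with the standard error of the fit (SE), means carry the standard deviation (SD) over mice, and p-values are from limma, adjusted over all 23526 genes tested with the Benjamini-Hochberg method. A gene was called higher or lower at an adjusted p under 0.05. The p-values measure the spread between these mice. Where no array of a group had a gene well above background, the difference is given as a bound ("at least N-fold"), which sets the mean of the brighter group against the faintest signal well above background on the dim arrays.

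The arrays split by slide and scan day. KO tumour mice 1 to 3 shared 1 slide and were scanned on the same day as all 4 KO livers, which lay on another slide. KO tumour mice 4 and 5 lay on a further slide of a later scan day, and no slide held both groups. The 75th percentile of the processed signal was between 2045 and 4258 on the 3 tumour arrays of the later day, between 951 and 1357 on the other 3 tumour arrays, and between 499.6 and 685 on the KO liver arrays. On KO tumour arrays 54.6 to 76.5% of the probes were well above background, and on KO liver arrays 51.1 to 56.5%. Array pairs correlated at 0.924 to 0.983 among KO tumours and at 0.983 to 0.988 among KO livers. Of 3 Y-linked genes tested, KO tumour mice 1 and 2 had 0 well above background, KO tumour mouse 4 had 2, and KO tumour mice 3 and 5 and all 4 KO livers had 3. Without KO tumour mice 1 and 2 the counts below were 4570 higher and 6294 lower.

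The knocked-out gene itself was dim in both groups. The Trp53 probe (chr11:69404204-69404263, mm9) read −4.60, −4.96, −4.49, −5.35 and −4.13 in KO tumours, against −6.47, −4.91, −5.91 and −5.01 in KO livers. It was well above background on 5 of 6 KO tumour arrays and 1 of 4 KO liver arrays. The means were −4.71 ± 0.47 in KO tumours and −5.57 ± 0.75 in KO livers (SD), with a difference of 0.87 ± 0.30 (SE, limma adjusted p = 0.022) and overlapping mice. WT livers averaged −3.57 ± 0.26, above both. The labels used here do not name the deleted exons, so whether this probe lies in the deleted stretch is unknown, and the call was lost under 8 of the alternatives tried.

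Of 23526 genes, 12032 passed the threshold (51.1%), 5078 higher in KO tumours (21.6%) and 6954 lower (29.6%). Among the higher genes 2373 differed by at least 4-fold and 122 by at least 64-fold, and among the lower genes 1959 and 74 did. The mice of the groups did not overlap for 42.8% of all genes. The median difference over all genes was −0.22. Because scaling sets the zero, the balance of directions moved with it: median scaling gave 5719 higher and 5968 lower with a shift of 0.13 in that median, and quantile scaling gave 5742 higher and 5408 lower with a shift of 0.21. With the slide as a random block, 2874 genes were higher and 3728 lower, which kept 54.9% of the calls. Of the 11494 genes that were not called, 4687 had a 95% interval inside a 2-fold difference either way, and for 6807 the interval reached further.

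Hepatocyte markers fell and most cholangiocyte markers rose. All 24 hepatocyte markers tested were lower in KO tumours, with a median difference of −3.82, but all 24 stayed above background on at least 1 KO tumour array. Of 16 cholangiocyte markers 11 were higher and none lower, with a median of 1.80. With the slide as a random block 6 were higher, and under quantile scaling 10 were, with a median of 0.41. The summed linear signal of the hepatocyte list was 1085 to 2688 over KO tumours and 7378 to 8541 over KO livers. That of the cholangiocyte list was 65.1 to 274 over KO tumours and 10.2 to 12.5 over KO livers, where 4 members, Krt7, Cldn4 and Muc1 among them, were above background on no array. In tissue RNA fewer cells of a type and less RNA per cell cannot be told apart.

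Single markers differed by mouse. Alb, the main plasma protein, read 5.04, 7.03, 7.13, 8.46 and 7.43 in KO tumours, against 9.97, 9.88, 10.17 and 9.81 in KO livers. Every KO tumour was below every KO liver, and the difference was −2.94 ± 0.44 (SE, limma adjusted p = 3.5e-05). Krt19, a bile duct keratin, read 3.32, 2.72, 3.41, −3.98 and 1.59 in KO tumours, against −3.16, −3.30, −2.90 and −3.54 in KO livers. Mouse 4 lay below all 4 KO livers and the other KO tumours lay above them, and the difference was 4.63 ± 1.10 (SE, limma adjusted p = 0.0022). Krt7 was within the KO liver range in KO tumour mouse 4, at −5.11, and read −0.73 to 1.09 in the other 4 KO tumours, and was at least 15.1-fold higher on average. Epcam, an epithelial surface protein, and Sox9, a factor of duct and progenitor cells, rose in all 5 KO tumours, by 6.43 ± 0.78 and 4.68 ± 0.37.

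The genes that rose most included Gp2 and Krt20. Gp2, a glycoprotein of pancreatic zymogen granules and gut M cells, read 7.79, 7.59, 7.47, 5.07 and 5.43 in KO tumours, against −4.74, −4.69, −5.15 and −6.39 in KO livers. No KO liver array had it above background, so it was at least 2599-fold higher in KO tumours (limma adjusted p = 2.5e-08), and its second probe gave a difference of 11.69. Krt20, a keratin of the mature gut lining, read 6.71, 6.80, 6.09, 5.07 and 4.33 in KO tumours, against −5.39, −5.61, −5.60 and −7.39 in KO livers, at least 1450-fold higher. The groups were far apart for both genes, with every KO tumour above 4 and every KO liver below −4. Genes whose mice overlapped had been left out of the choice.

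Members of the Reg family of secreted lectins were also among them. Reg3g, a lectin that kills Gram-positive bacteria in the intestine, read 3.15 to 6.59 in KO tumours and −6.24 to −7.09 in KO livers, at least 974-fold higher. Its neighbour Reg3b rose by 10.86 ± 1.64, with 1 of 4 KO liver arrays above background. Of 5 Reg genes tested 4 were higher and none lower, and 3 of the 5 were above background on no KO liver array. Dmbt1, a scavenger receptor of mucosal secretions, was at least 513-fold higher on average but uneven, at 5.26, 6.93, 6.72, 0.12 and 2.49 in KO tumours against −6.08 to −6.94 in KO livers. Wfdc18, a small protease inhibitor family member, was above background on every array of both groups and rose by 9.29 ± 0.64 (626-fold, limma adjusted p = 3.2e-08).

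Other genes among the 15 highest had varied roles. Guca2b, the gut peptide uroguanylin, rose by 9.20 ± 0.88 with 2 of 4 KO liver arrays above background. Umod, the main protein of urine, was at least 207-fold higher, at 5.56, 3.90, 4.53, 1.02 and −0.04 in KO tumours. Mmp7, an epithelial matrix protease, was at least 558-fold higher, at 6.24, 6.36, 5.92, 1.28 and 3.15. In both, mice 4 and 5 were the lowest of the KO tumours. All 5 KO tumours still exceeded every KO liver, as the choice of these genes required. Lbhd2 read 0.90 to 5.44 in KO tumours and was above background on no KO liver array. Scube3, a secreted signalling protein, was at least 280-fold higher, AA467197 at least 145-fold and Eps8l3, a regulator of actin, at least 92.9-fold. Gabrp, a GABA receptor subunit found in epithelia, was at least 95.2-fold higher on average and read −2.82 in KO tumour mouse 4 against 2.38 to 3.77 in the other KO tumours.

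**Figure D1:**
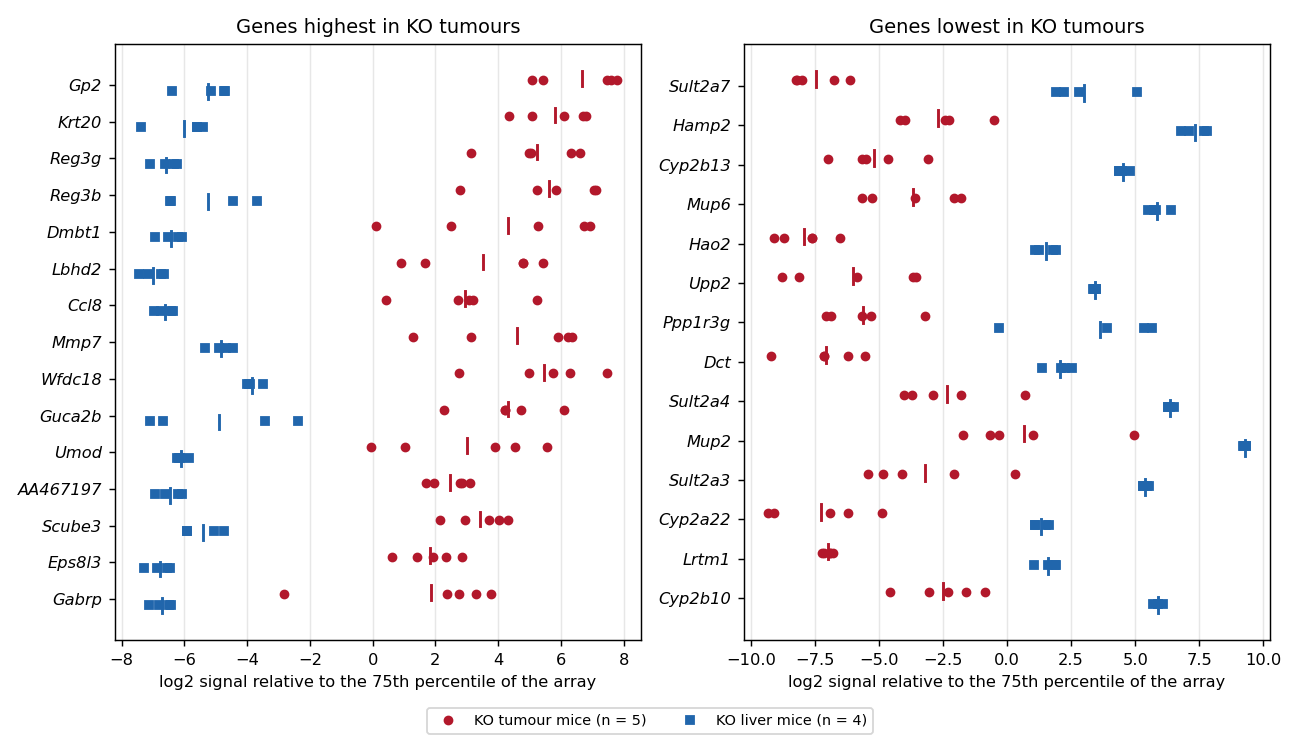
Log2 signal relative to the array's 75th percentile (horizontal) for 15 of the genes highest and 14 of the genes lowest in KO tumours against KO livers, with 1 point per mouse (KO tumour n = 5, KO liver n = 4) and a vertical bar at each group mean. No KO tumour point overlaps a KO liver point in any of the 29 genes, since the genes were chosen for that, and the KO tumour mice are the more spread in 25 of them.

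Genes with the smallest adjusted p among those that rose were mostly others. Smpd3, a sphingomyelinase of cell membranes, read 0.66, 1.65, 1.26, 1.05 and 0.40 in KO tumours, against −4.89, −5.39, −4.43 and −5.69 in KO livers, at least 52.3-fold higher (limma adjusted p = 6.7e-09). Nucb2, the precursor of nesfatin, read 1.49 to 2.59 in KO tumours and −2.85 to −3.27 in KO livers, a rise of 4.89 ± 0.26. Vill, a villin-like actin binder, rose by 4.65 ± 0.25 and Gpc1, a heparan sulphate carrier at the cell surface, by 5.66 ± 0.32. Ubd, a ubiquitin-like modifier that cytokines induce, read 4.47 to 5.73 in KO tumours and −2.52 to −4.19 in KO livers, a rise of 8.55 ± 0.51 (376-fold) with 3 of 4 KO liver arrays above background. In each of these genes every KO tumour lay above every KO liver, which was a condition for choosing them.

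Most epithelial surface genes rose, and junction genes split. Of 34 tetraspanin and surface genes 26 were higher and 1 was lower, with a median of 1.90. Cd63 rose by 4.02 ± 0.27, Tspan8 by 6.58 ± 0.55, Ly6d by 6.00 ± 0.54 and the membrane mucin Muc13 by 7.86 ± 0.88, the last with 2 of 4 KO liver arrays above background. Of 40 junction genes 16 were higher and 10 lower, and of the 28 above background on every array 8 were higher and 11 lower. Over all 14549 genes above background on every array of both groups, 3084 were higher and 5823 lower. E-cadherin (Cdh1), the adhesion protein of epithelia, read 1.49, 2.29, 3.01, 2.37 and 2.43 in KO tumours, against −2.69, −2.40, −2.27 and −2.79 in KO livers, a rise of 4.86 ± 0.37. WT livers averaged 0.66 ± 0.85 for Cdh1, between the KO groups. Cdh17, the cadherin of intestine, was at least 13.1-fold higher, while N-cadherin (Cdh2) fell by 1.91 ± 0.21 and the gap junction gene Gjb2 by 2.48 ± 0.27.

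Enzymes that build sugar chains on mucins and factors of gut identity were more often higher than lower. Of 23 mucin glycosylation genes 11 were higher and 3 lower, among them Galnt12, which starts O-linked chains, with a rise of 4.95 ± 0.52. Of 26 gut and foregut transcription factors 13 were higher and 2 lower, with a median of 1.11. Foxj1, the factor of motile cilia, was at least 31.1-fold higher. Gata4 fell by 1.22 ± 0.31, a call lost with the slide as a random block. Of 21 ETS factors 12 were higher and 4 lower, led by Spib, known from lymphoid and M cells, at 5.32, 6.26, 4.41, 3.20 and 3.68 in KO tumours against −2.93 to −2.69 in KO livers (7.33 ± 0.67). Pax8, a factor of kidney and thyroid, rose by 4.07 ± 0.39 with 1 of 4 KO liver arrays above background, and Klf4, a factor of differentiated gut epithelium, by 3.22 ± 0.35. Of 14 intestinal epithelium markers 9 were higher and 1 lower. Of 10 gastric markers 4 were higher and 3 lower, with Muc5ac, the gastric surface mucin, falling by 1.90 ± 0.25. In these lists 7 of the 14 and 7 of the 10 were above background on no KO liver array. Genes kept through tumour arrays lean towards a call of higher, so the filter itself favours that direction here.

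Matrix, adhesion and cytoskeleton genes were mostly higher. Of 34 basement membrane and matrix genes 25 were higher and 3 lower, with a median of 1.73. Lama5, a basement membrane laminin, rose by 4.36 ± 0.30 and Thbs1, a matrix glycoprotein, by 5.38 ± 0.54 with 3 of 4 KO liver arrays above background. Col18a1, a basement membrane collagen that hepatocytes make, fell by 1.87 ± 0.31. Fibronectin (Fn1) fell by 0.73 ± 0.18, though it was 0.36 higher under quantile scaling and its call was lost with the slide as a random block. Of 17 integrin genes 12 were higher and 1 lower, with Itgav, a fibronectin and vitronectin receptor subunit, rising by 3.53 ± 0.41.

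Matrix proteases and their inhibitors were mostly higher. Of 22 Mmp and Timp genes 16 were higher and 2 lower, and 7 of the 22 were above background on no KO liver array. Timp1, which blocks these proteases, read 4.90, 4.54, 4.51, 3.15 and 3.16 in KO tumours, against −4.11, −4.27, −3.79 and −4.33 in KO livers, a rise of 8.18 ± 0.60. Plat, the tissue plasminogen activator, was at least 15.9-fold higher, and the urokinase receptor Plaur rose by 4.92 ± 0.54 with 3 of 4 KO liver arrays above background. Of 34 actin cytoskeleton genes 21 were higher and 4 lower, among them Ezr, which ties actin to the membrane of microvilli, at 3.66 ± 0.29, while its relative Rdx, the form common in hepatocytes, fell by 2.60 ± 0.26. Of 14 stellate cell and fibroblast markers 10 were higher and 1 lower, and their summed signal was 99.2 to 413 in KO tumours and 47.4 to 55.8 in KO livers. The part of these cells in the matrix result was not tested.

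**Figure D2:**
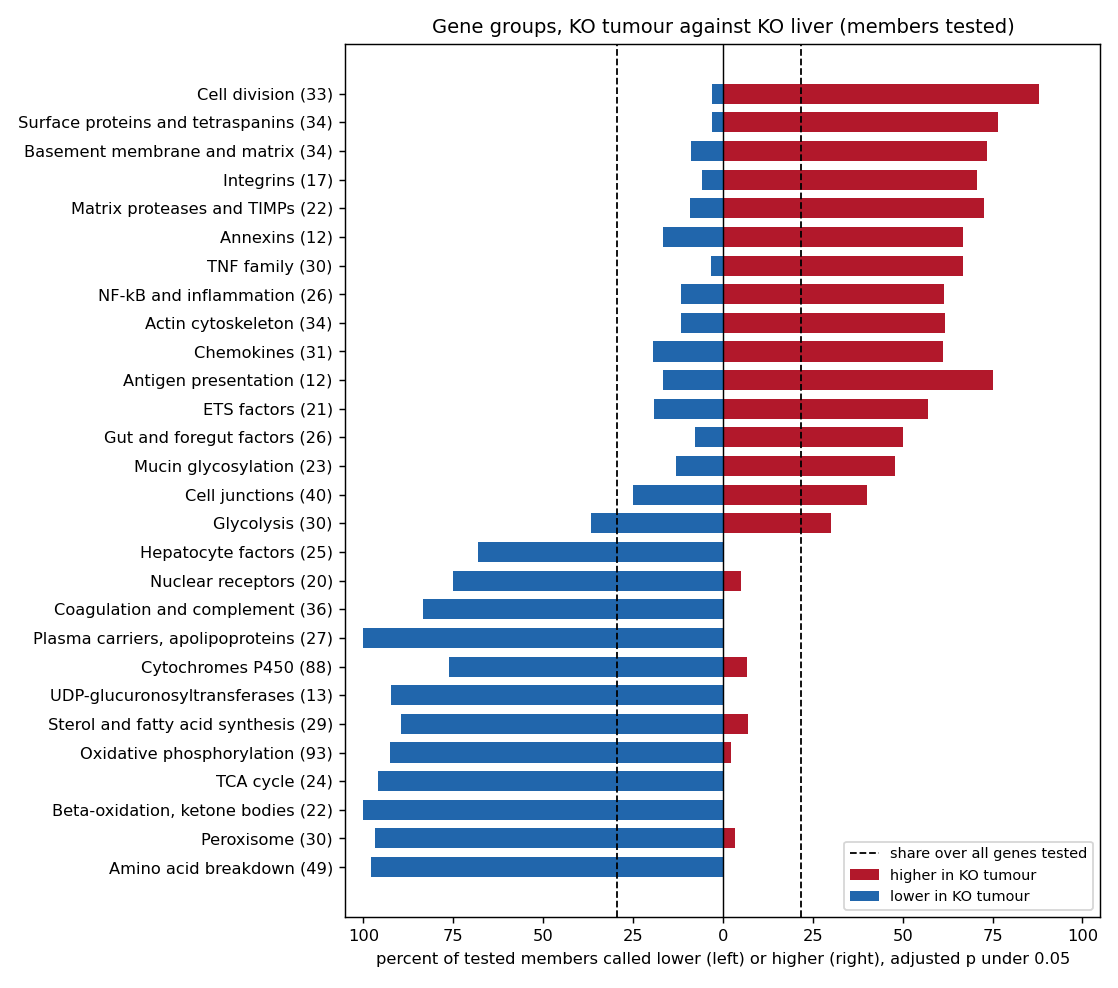
Percent of the tested members of 28 gene groups (number in brackets) that were called higher (right) or lower (left) in KO tumours against KO livers at an adjusted p under 0.05. The dashed lines mark the shares over all genes tested, 21.6% higher and 29.6% lower, and the groups of liver metabolism and plasma proteins reach furthest to the left.

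Chemokines and inflammatory genes were mostly higher. Of 31 chemokine genes 19 were higher and 6 lower, and of 26 genes of NF-kB signalling and inflammation 16 were higher and 3 lower. In these lists 10 of the 31 and 5 of the 26 were above background on no KO liver array. Ccl8, an attractant of monocytes and eosinophils, read 3.08, 0.42, 3.21, 2.72 and 5.23 in KO tumours and −6.35 to −6.96 in KO livers, at least 199-fold higher. Ccl7, which draws monocytes, was at least 31.9-fold higher, Ccl2, which does the same, rose by 5.18 ± 0.42 and the adhesion protein Icam1 by 3.58 ± 0.28. Cxcl12, a homing signal made by stroma and endothelium, fell by 2.99 ± 0.25. Of 30 TNF ligand and receptor genes 20 were higher and 1 lower. That 1, Tnfrsf9, was 1.07 higher when the probes of a gene were averaged, so its direction depended on the probe. Its call was also lost with the slide as a random block.

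Immune cell markers gave mixed counts. Of 12 macrophage markers 6 were higher and 5 lower. The complement genes C1qa and C1qb rose by 2.30 ± 0.30 and 2.24 ± 0.33, while Cd5l, which resident liver macrophages secrete, read 0.05, 2.04, −1.95, −2.03 and 4.33 in KO tumours against 4.67 to 5.08 in KO livers. Of 12 antigen presentation genes 9 were higher and 2 lower. The class II genes Cd74 and H2-DMa rose by 3.64 ± 0.38 and 2.91 ± 0.29, whereas the class I genes B2m and H2-K1 fell by 1.23 ± 0.24 and 0.97 ± 0.16. Under quantile scaling H2-K1 was 0.17 higher and the B2m call was lost, so neither class I fall held there. Jchain, which joins antibody chains in plasma cells, read 4.12, 5.47, 4.67 and 5.69 in 4 KO tumours. It read −1.05 in mouse 2 and −1.03 to −1.51 in KO livers. The Jchain call was lost with the slide as a random block. Summed macrophage markers ranged over 62.6 to 269.8 in KO tumours and 88.2 to 110.0 in KO livers, and summed B and plasma cell markers over 1.28 to 70.5 in KO tumours and 1.19 to 1.53 in KO livers.

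Endothelial genes went both ways. Clec4g and Stab2, receptors of the liver sinusoid lining, fell by 6.08 ± 0.67 and 3.35 ± 0.64. The pan-endothelial genes Emcn and Pecam1 rose by 1.84 ± 0.32 and 0.97 ± 0.30. The Pecam1 call was lost under quantile scaling and with the slide as a random block. Of 11 endothelial markers 2 were higher and 4 lower (18.2% and 36.4%), near the 21.6% and 29.6% of all genes. The balance turned to 3 higher and 2 lower under median scaling. The haemoglobin gene Hba-a1 fell by 4.07 ± 0.67, 3 of 5 erythroid markers were lower and none higher, and the summed erythroid markers were 4.97 to 27.5 in KO tumours and 33.4 to 246 in KO livers.

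Genes of cell division rose almost as a whole. Of 33 members 29 were higher and 1 lower, with a median of 2.71, and the mean of the list lay 2.21 to 3.14 above the KO liver level in each of the 5 KO tumours. Mki67, the proliferation antigen, read 2.59, 2.94, 2.04, 2.04 and 2.46 in KO tumours, against −2.23, −2.11, −2.42 and −2.50 in KO livers, a rise of 4.73 ± 0.57 (limma adjusted p = 4.4e-06). Bub1b, a spindle checkpoint kinase, was at least 7.46-fold higher, and the replication helicase gene Mcm2 rose by 3.43 ± 0.28. Tk1, which salvages thymidine, fell by 1.37 ± 0.30, a call lost with the slide as a random block.

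The promoters of this list shared short letters that its values did not use. A CCAAT box (CCAAT, bound by NF-Y) lay in 74.1% of the 27 promoters found for the list and a cell cycle homology element (CHR, TTTGAA) in 40.7%, against 37.9% and 18.1% of all 27025 promoters in the RefSeq table (GRCm38.p6), both motifs searched on both strands. Both letters together lay in 40.7% of the list and 7.12% of all promoters. Bub1b and Mcm2 are shown because both belong to the genes that hold the pair and are named by value above. Each sequence runs from 250 bases before the start of the gene to 50 after it, 5′ to 3′ on the strand of the gene, and the capitals mark the CCAAT box (ATTGG where it lies on the other strand) and the CHR.
Bub1b (chr2:118597961-118598260, plus strand): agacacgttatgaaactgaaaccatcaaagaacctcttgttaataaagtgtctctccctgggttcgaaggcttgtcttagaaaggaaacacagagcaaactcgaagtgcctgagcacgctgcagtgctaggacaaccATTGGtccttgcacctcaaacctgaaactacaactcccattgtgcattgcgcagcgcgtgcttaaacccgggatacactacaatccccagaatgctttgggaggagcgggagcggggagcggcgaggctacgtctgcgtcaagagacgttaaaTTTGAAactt
Mcm2 (chr6:88898731-88899030, minus strand): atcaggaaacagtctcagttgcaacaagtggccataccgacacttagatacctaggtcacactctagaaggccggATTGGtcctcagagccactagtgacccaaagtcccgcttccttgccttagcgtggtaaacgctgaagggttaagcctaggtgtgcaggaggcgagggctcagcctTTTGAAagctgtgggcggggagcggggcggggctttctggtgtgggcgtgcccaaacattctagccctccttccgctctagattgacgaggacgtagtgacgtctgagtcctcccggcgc
In Bub1b the CCAAT box begins at base 138 and the CHR at base 291 of the window, and in Mcm2 they begin at 76 and 181. A match of letters is a description of the window and says nothing of binding.

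Of 11 CDK inhibitor genes, which brake the cell cycle, 5 were higher, 1 was lower and 5 were not called. The shares were 45.5% higher and 9.09% lower, beside 21.6% and 29.6% of all genes. Cdkn2a, which encodes p16 and p19Arf, read 4.82, 3.49, 4.05, 2.10 and 2.06 in KO tumours, against −1.86, −1.45, −1.48 and −1.04 in KO livers, a rise of 4.76 ± 0.45. Its neighbour Cdkn2b rose by 4.29 ± 0.42, and Cdkn1c, the imprinted p57, fell by 2.43 ± 0.32. Of 25 known p53 target genes 10 were higher (40%) and 4 lower (16%), with Trp53 knocked out in both groups. Pmaip1, a death-promoting BCL2 relative, rose by 5.16 ± 0.52 and the death receptor Tnfrsf10b by 3.91 ± 0.33, while Perp fell by 1.67 ± 0.25 and Sesn2 by 0.85 ± 0.18. Of 30 DNA repair genes 15 were higher and 4 lower, and of the 19 above background on every array 5 were higher and 6 lower. Beside these 19, all genes above background on every array gave 3084 higher and 5823 lower of 14549. Mgmt, which removes alkyl groups from DNA, fell by 2.42 ± 0.33.

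Among signalling genes ligands and receptors were called in both directions. Of 54 growth factor and receptor genes 21 were higher (38.9%) and 16 lower (29.6%). Over all genes 21.6% were higher and 29.6% lower, so the lower share was that of all genes. Pdgfb, a growth factor for stromal cells, averaged 3.40 ± 0.34 in KO tumours and −1.19 ± 0.46 in KO livers (SD), a rise of 4.59 ± 0.38, and the oncostatin M receptor Osmr rose by 3.65 ± 0.28. Fgf1 fell by 3.30 ± 0.25 and the prolactin receptor Prlr by 4.77 ± 0.48. Of 17 genes of MAP kinase output and feedback 8 were higher (47.1%) and 2 lower (11.8%). Etv4 and Etv5, targets of that pathway, rose by 4.79 ± 0.45 and 2.08 ± 0.24, and Dusp6 fell by 0.90 ± 0.26. The Dusp6 call was lost under quantile scaling, with the slide as a random block, and on the scan day that held both groups.

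Of 15 Notch genes 8 were higher and 1 lower, with the ligand Jag1 rising by 3.08 ± 0.27. Of 15 Hippo genes 9 were higher and 3 lower, with the adaptor Ajuba rising by 3.21 ± 0.21 and Yap1 itself falling by 1.34 ± 0.24. Of 36 Wnt genes 13 were higher and 13 lower, 36.1% each beside 21.6% higher and 29.6% lower of all genes. The secreted antagonists Dkk2 and Dkk3 rose, Dkk2 at least 10.1-fold and Dkk3 by 3.06 ± 0.37. The receptor-removing ligase Rnf43 fell by 2.42 ± 0.30. Of 24 insulin and mTOR genes 1 was higher and 15 lower, Irs1 by 3.18 ± 0.42 and Foxo1 by 1.45 ± 0.19. Binding proteins of insulin-like growth factors went both ways, with Igfbp3 up by 3.41 ± 0.62, Igfbp6 up by 4.37 ± 0.78 and Igfbp2 down by 4.81 ± 0.80.

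Amino acid synthesis genes went both ways and breakdown genes fell. Of 15 synthesis genes 7 were higher and 4 lower, or 4 and 4 of the 10 above background on every array. All genes above background on every array gave 3084 higher and 5823 lower of 14549. Of 49 amino acid breakdown genes 48 were lower and none higher. Psat1, a step of serine synthesis, read 2.57, 3.19, 1.44, 2.44 and 2.13 in KO tumours, against −3.86, −4.04, −3.33 and −3.84 in KO livers, a rise of 6.12 ± 0.52. Asns, asparagine synthetase, rose by 5.82 ± 0.68 over KO livers, whose mean of −4.04 ± 0.39 (3 of 4 arrays above background) lay below the 1.12 ± 0.87 of WT livers. Aldh18a1, for proline, was at least 5.79-fold higher. On the breakdown side Hpd, for tyrosine, fell by 6.04 ± 0.49, Gcdh, for lysine, by 4.51 ± 0.34 and Hibadh, for valine, by 3.35 ± 0.22.

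In other pathways, too, some enzymes rose and others fell. Mthfd2, the mitochondrial folate enzyme of growing cells, was at least 13.1-fold higher and Ctps, for cytidine, rose by 2.99 ± 0.35, while Shmt2 fell by 2.31 ± 0.23. Brain-type glycogen phosphorylase Pygb rose by 3.65 ± 0.31 and liver-type Pygl fell by 3.83 ± 0.34. The glycolytic kinase Pkm and the lactate exporter Slc16a3 rose by 3.20 ± 0.47 and 4.53 ± 0.44, while Pfkfb1, the liver form of a glycolysis regulator, fell by 3.28 ± 0.42. Lpl, lipoprotein lipase, rose by 3.36 ± 0.41 and hepatic lipase Lipc fell by 5.26 ± 0.50. The lipid droplet gene Cidea rose by 5.49 ± 0.84 over KO livers, of which 3 of 4 arrays had it above background. Gpx2, the gut glutathione peroxidase, rose by 6.69 ± 0.63 with 3 of 4 KO liver arrays above background, and Stra6, a vitamin A receptor, was at least 69.0-fold higher, while the retinol enzyme Rdh16 fell by 5.75 ± 0.52 and the carrier Ttr by 4.05 ± 0.47.

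The genes that fell most included a hepcidin gene and the sulphotransferase, P450 and major urinary protein families. Hamp2, a second mouse hepcidin gene next to the iron hormone gene Hamp, read −3.98, −4.20, −2.28, −0.53 and −2.42 in KO tumours, against 7.08, 7.80, 7.68 and 6.79 in KO livers. The difference was −10.02 ± 0.67 (1037-fold lower, limma adjusted p = 2.5e-08), and WT livers averaged 0.39 ± 0.63. Hamp, named after its values were seen, read −0.35, 2.44, 1.05, −0.49 and −0.70 in KO tumours and 4.61 to 7.02 in KO livers (−5.43 ± 0.93). The probes of the pair are shown because their letters decide whether the array can tell the genes apart: they match at 42 of 60 bases at a shift of 1 base, and the capitals mark the bases that differ or lie outside the match (mm9, minus strand).
Hamp2 (chr7:31707520-31707579): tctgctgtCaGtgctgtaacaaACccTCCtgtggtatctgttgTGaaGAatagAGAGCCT
Hamp (chr7:31727490-31727549): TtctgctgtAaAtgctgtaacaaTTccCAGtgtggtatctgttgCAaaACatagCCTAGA

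Families of near-identical genes made up most of the rest, so single members are uncertain. Sult2a7 fell by 10.46 ± 0.81, with 1 of 6 KO tumour arrays above background. Cyp2b13 had a difference of −9.69 ± 0.91, with 3 of 6 KO tumour arrays above background, and Mup6 of −9.54 ± 1.06. Of 16 sulphotransferases 14 were lower and 1 higher, with a median of −5.40, and the 1 that was higher, Sult2b1, which acts on cholesterol in skin and gut, was at least 31.4-fold higher. All 12 Mup genes tested were lower, with a median of −6.78. Mup2 read −1.73 to 4.95 in KO tumours and 9.22 to 9.33 in KO livers, so the KO tumours were far more spread than the KO livers. Of 88 P450 genes 67 were lower and 6 higher, and of 13 UDP-glucuronosyltransferases 12 were lower and none higher.

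Several of these falls started from KO livers that differed from WT livers. Sult2a4 read −2.35 ± 1.92 in KO tumours and 6.36 ± 0.12 in KO livers, while WT livers had −6.96 ± 0.24. Cyp2b13 read −5.18 ± 1.44 in KO tumours and 4.51 ± 0.19 in KO livers, with −4.01 ± 0.86 in WT livers. In both genes the KO livers were above both other groups, by more than the spread within each. Cyp2b13 belongs to a list of 11 tested genes known to be higher in female mouse liver, of which 10 were lower and 1 higher in KO tumours with a median of −7.62. All 4 KO livers had the Y-linked genes above background. Of 11 genes known to be higher in male liver 5 were lower and none higher, among them Mup21 by 8.31 ± 0.94. The mean of that list lay 3.53 and 3.86 below the KO liver level in KO tumour mice 1 and 2, which had no Y-linked gene above background, and 1.52, 0.52 and 2.08 below it in mice 3 to 5. Without mice 1 and 2, 4 of the 11 were lower and 1 was higher, and the part of sex in these values was not tested.

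Sterol synthesis held the gene with the smallest adjusted p of all. Tm7sf2, a sterol reductase, read 1.53, 1.43, 1.67, 2.11 and 1.49 in KO tumours, against 6.08, 6.37, 6.41 and 6.29 in KO livers, a fall of 4.64 ± 0.20 (24.9-fold, limma adjusted p = 1.0e-09). Of 29 sterol and fatty acid synthesis genes 26 were lower and 2 higher, with Fdps falling by 2.67 ± 0.19 and the sterol sensor Insig1 by 3.32 ± 0.24. The regulator Srebf2 was higher by 0.86 ± 0.26, a call lost under 4 alternatives. Acss2, which makes acetyl-CoA in the cytosol, fell by 5.83 ± 0.34. Lrtm1, a membrane protein with leucine-rich repeats, read −6.81 to −7.22 in KO tumours, where no array had it above background, and 1.03 to 1.92 in KO livers, at least 244-fold lower.

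Genes of the organelles that burn fuel fell. All 22 genes of beta-oxidation and ketone synthesis were lower, with a median of −2.41, as were 29 of 30 peroxisome genes, 23 of 24 citric acid cycle genes and 86 of 93 genes of oxidative phosphorylation, where the median was −1.65 and 2 were higher. Etfa, which passes electrons from fat oxidation, fell by 3.62 ± 0.22, Acadvl, for long chains, by 2.55 ± 0.21, and the peroxisomal gene Hacl1 by 5.60 ± 0.41. Sdhd and Uqcrc1, subunits of respiratory complexes, fell by 2.11 ± 0.18 and 2.16 ± 0.17. Quantile scaling kept the direction and left 73 oxidative phosphorylation genes lower. In the urea cycle 8 of 9 genes were lower, with Ass1 at 1.38, 2.31, 2.52, 4.54 and 4.67 in KO tumours against 8.01 to 8.46 in KO livers (−5.17 ± 0.54).

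Plasma protein genes fell in the same tumours. All 27 carrier and apolipoprotein genes and 30 of 36 coagulation and complement genes were lower, with no gene higher in either list and medians of −3.25 and −2.34. Mbl2, a lectin that starts complement, fell by 8.17 ± 0.64, F7 by 2.60 ± 0.28 and the iron sensor Tfr2 by 2.84 ± 0.30. Of 30 bile acid genes 23 were lower and 1 higher, with Cyp8b1, which sets the bile acid mix, falling by 6.45 ± 0.72. Of 25 hepatocyte transcription factors 17 were lower and none higher: Hnf4a read 3.24, 4.13, 3.38, 5.69 and 4.50 in KO tumours, against 6.85, 6.68, 6.69 and 7.04 in KO livers (−2.63 ± 0.36), Nr1i3, the xenobiotic receptor CAR, fell by 5.26 ± 0.53 and Rxra by 2.81 ± 0.28. Of 18 clock genes 10 were lower (55.6%), Hlf among them (−4.11 ± 0.55), and 2 were higher (11.1%). Of all genes 29.6% were lower and 21.6% higher.

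Promoters of the genes that fell were read for the site of HNF1, a hepatocyte factor. The letters searched were GTTAAT, then any base, then ATT, on either strand. They lay in 1.43% of the 1326 promoters of genes at least 4-fold lower, 0.196% of the 1527 promoters of genes at least 4-fold higher and 0.437% of all 27025 promoters. Among the 14286 promoters of tested genes the share was 0.364%. Other motifs were searched too. The HNF4 letters (CAAAGTCCA) lay in 1.43%, 0.589% and 0.477% of the lower, higher and all promoters, and the AP-1 letters (TGA, any base, TCA) in 8.6%, 8.45% and 7.93%. The HNF1 letters lay in 3 of 27 promoters of the coagulation and complement list and 1 of 17 of the hepatocyte list. The AP-1 letters lay in 2 of 27 and 5 of 17. G6pc, the last step of glucose release, and F13b, a coagulation subunit, are shown as members of these 2 lists with an HNF1 match. Both were chosen after their values were seen. G6pc read −2.37, −1.35, 0.21, −2.17 and 0.71 in KO tumours and 1.33 to 5.19 in KO livers (−4.93 ± 0.87), and F13b read −2.89, −1.60, −0.39, 1.77 and 0.80 in KO tumours and 3.21 to 3.47 in KO livers (−3.83 ± 0.64). The windows are RefSeq, GRCm38.p6, and the capitals mark the HNF1 letters, which lie on the other strand in F13b.
G6pc (chr11:101367466-101367765, plus strand): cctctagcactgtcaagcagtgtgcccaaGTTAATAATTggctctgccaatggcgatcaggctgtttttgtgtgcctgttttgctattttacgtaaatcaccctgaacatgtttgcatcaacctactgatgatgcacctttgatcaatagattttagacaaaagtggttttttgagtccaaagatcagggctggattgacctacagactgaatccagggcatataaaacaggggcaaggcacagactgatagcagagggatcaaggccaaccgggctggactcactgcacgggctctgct
F13b (chr1:139501457-139501756, plus strand): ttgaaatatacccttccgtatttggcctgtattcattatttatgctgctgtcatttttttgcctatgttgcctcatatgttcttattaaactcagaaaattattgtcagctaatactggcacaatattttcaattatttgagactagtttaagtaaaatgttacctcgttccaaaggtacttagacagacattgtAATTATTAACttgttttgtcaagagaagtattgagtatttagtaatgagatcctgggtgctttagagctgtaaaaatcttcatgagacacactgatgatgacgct
The match begins at base 30 in G6pc and at base 196 in F13b.

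**Figure D3:**
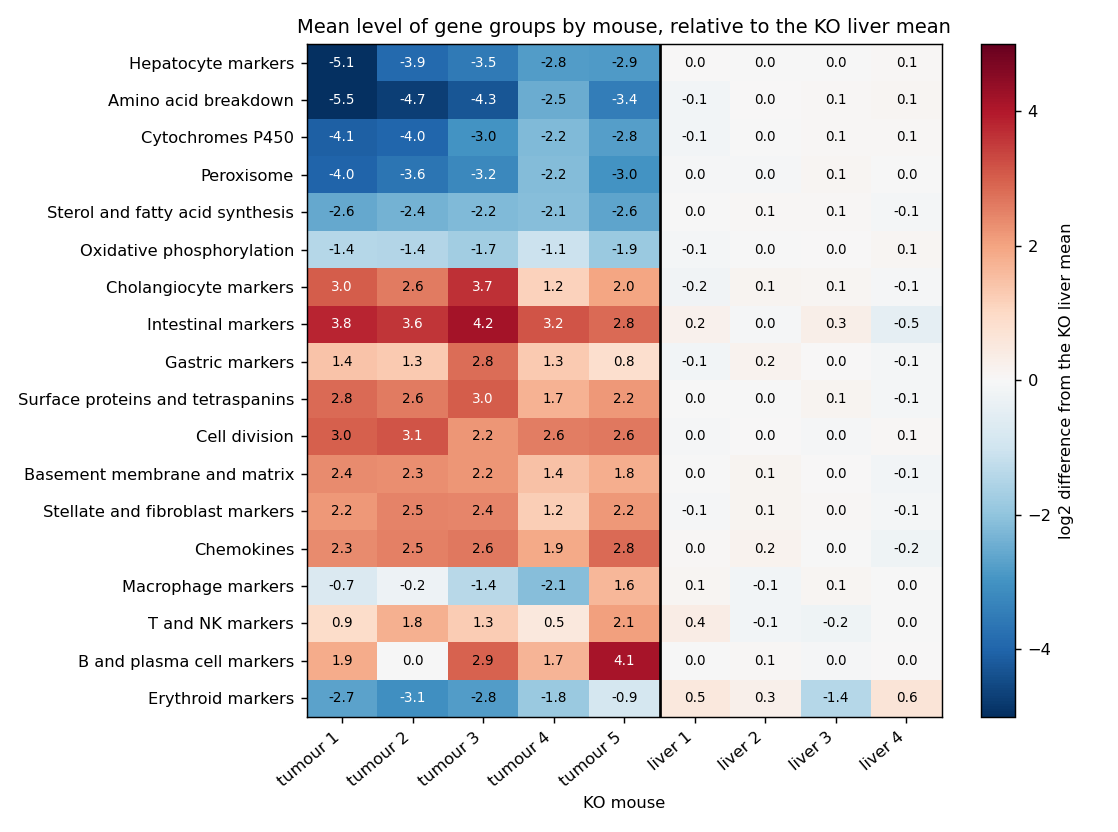
Mean log2 difference of the members of 18 gene groups from their KO liver mean, for each of the 5 KO tumour mice and the 4 KO liver mice, in red where higher and blue where lower. Hepatocyte markers run from −5.1 to −2.8 over KO tumours, cell division from 2.2 to 3.1, and macrophage markers lie above the KO liver mean in mouse 5 and below it in the other 4 KO tumours.

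For a few lists the direction rested on the scaling. Of 84 ribosomal protein genes 19 were lower and 3 higher with a median of −0.25, but 70 were higher and 1 lower with a median of 0.74 under quantile scaling. Of 48 proteasome genes 30 were lower and 2 higher, against 8 lower and 12 higher under quantile scaling. Of 20 housekeeping genes 11 were lower and 2 higher, against 3 lower and 5 higher. No direction is given for these lists. Among 392 olfactory receptor genes, which liver is not known to use, 119 were lower and 8 higher, and 47 lower and 5 higher under quantile scaling. In the main fit that was 30.4% lower and 2.04% higher, against 29.6% and 21.6% of all genes.

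The KO tumours differed from each other more than the KO livers did. Over all genes the median SD was 0.60 among KO tumours and 0.21 among KO livers, and 88.8% of genes varied more among KO tumours. The KO livers shared a slide and a scan day, whereas the KO tumours did not, so slide and day add to the spread of KO tumours only. The 2 tumours of mouse 5 were 2-fold or more apart for 9.19% of genes, while tumours of different mice were so for 14.8 to 39.7%. The mouse 5 pair shared a slide, and many pairs of different mice did not. The hepatocyte list lay 5.12, 3.90, 3.52, 2.81 and 2.85 log2 units below the KO liver mean in KO tumour mice 1 to 5, and amino acid breakdown 5.45, 4.71, 4.26, 2.48 and 3.45 below it. Mice 4 and 5, with the smallest falls in both lists, were the arrays of the later slide and scan day, so the tumour and the array run cannot be told apart.

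Among the called genes with the widest range, granzyme E (Gzme) read 2.49, 4.98, −2.17, −6.75 and −5.02 in KO tumours, against −6.27 to −7.13 in KO livers, and its neighbour Gzmg had the same order. Retnla, a product of alternatively activated macrophages, read 0.17, 3.11, 3.17 and 3.68 in 4 KO tumours and −7.13 in mouse 2, against −4.87 to −6.57 in KO livers. Marco and Clec4f, receptors of resident liver macrophages, read 5.27 and 2.92 in KO tumour mouse 5, above the highest KO liver for Marco and within the KO liver range for Clec4f, and at most 1.32 in the other KO tumours. Mup19 read 3.49, 0.95, 7.26, −1.33 and 1.07 in KO tumours and 9.12 to 9.38 in KO livers. Some of these calls were not firm. That of Gzmg was lost under 11 of 22 alternatives, that of Marco under 9 of 24 and that of Gzme under 4 of 22. Retnla, Clec4f and Mup19 each lost the call under 1. H19, an imprinted fetal transcript, read 1.02, 1.46, 3.52, 7.69 and 4.23 in KO tumours and −1.91 to −3.64 in KO livers, but its other probe gave a difference of −0.12.

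**Figure D4:**
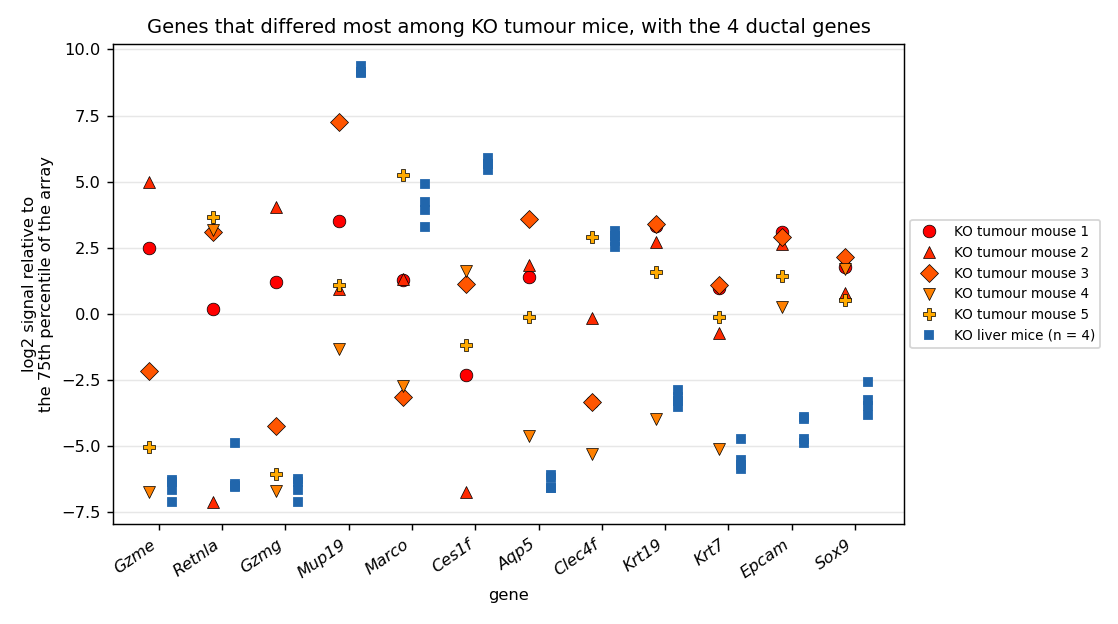
Log2 signal relative to the array's 75th percentile (vertical) of the 8 called genes with the widest range over KO tumours and of 4 ductal genes, with a separate marker for each of the 5 KO tumour mice and squares for the 4 KO livers. KO tumour mouse 4 is the lowest for Krt19, Krt7, Epcam and Aqp5, and mouse 5 is the highest for Marco and Clec4f.

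Genes of chromosome 15 were shifted upward in every KO tumour. The median difference of its 899 tested genes, less that of all genes, was 0.42, 0.47, 0.29, 0.36 and 0.24 in KO tumour mice 1 to 5 and 0.00 to 0.01 in KO livers. It was the highest of all chromosomes in 4 of 5 mice; in mouse 5 chromosome 6 was at 0.25. Of the chromosome 15 genes 33.3% were higher and 20.8% lower, against 21.6% and 29.6% of all genes. The shift was also seen in the 586 genes above background on every array (0.16 to 0.52) and in 5 of 6 windows of 20 Mb, where each KO tumour lay between 0.09 and 0.57. The window from 40000001 to 60000000 ranged over −0.14 to 0.42. Chromosome 9 moved the other way, by −0.30 to −0.09, with 35.7% of its genes lower. Chromosomes were looked at after the values were seen, and DNA copies were not measured in these files.

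**Figure D5:**
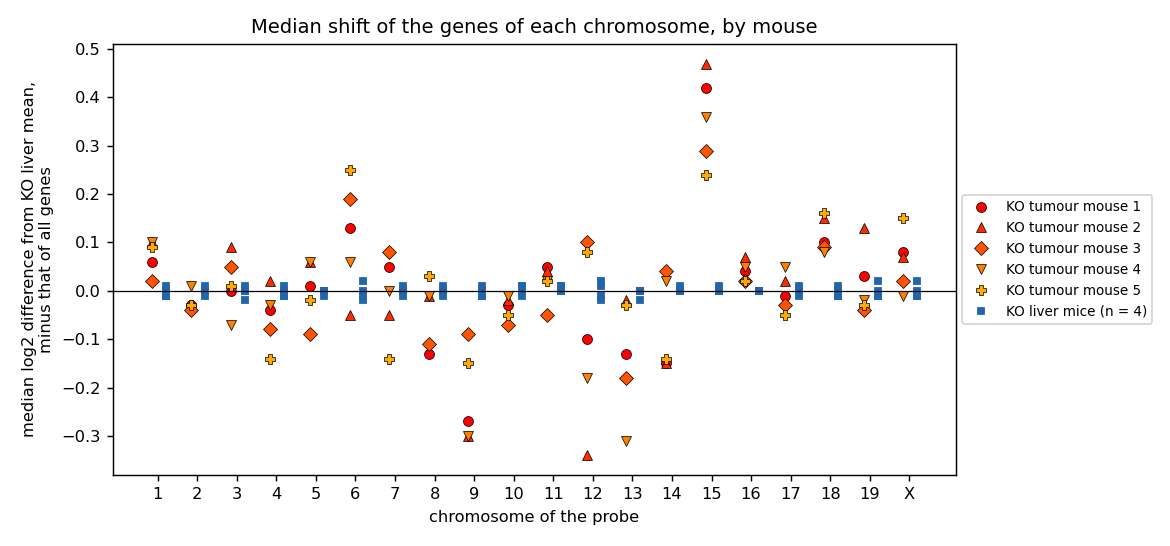
Median log2 difference from the KO liver mean of the genes of each chromosome, less that of all genes, for each KO tumour mouse (markers) and the 4 KO livers (squares). Chromosome 15 lies at 0.24 to 0.47 in the 5 KO tumours and chromosome 9 at −0.30 to −0.09, while the KO livers stay near 0.

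The changes were then set beside those of DEN tumours against WT livers, which used other mice on both sides. Among all genes 5071 (21.6%) were called between DEN tumours and WT livers in either direction. Of the genes higher in KO tumours, 1290 (25.4%) were also higher in DEN tumours and 148 were lower, and of the genes lower in KO tumours 1765 (25.4%) were also lower and 304 higher. The 25.4% count 1 direction and the 21.6% both, so they are not like shares. The share of all genes in each direction in DEN tumours was not counted. The difference of the 2 tumour effects was itself called for 30.9% of all genes. Gp2 differed by 11.91 between KO tumours and KO livers and by −0.15 between DEN tumours and WT livers, and Reg3g by 11.80 and 0.25. For Pygb the 2 differences were 3.65 and 3.73, for Anxa2 3.54 and 3.60, and for Tspan8 6.58 and 8.33, and in none of the 3 did the difference of the effects pass the threshold (limma adjusted p = 0.91, 0.90 and 0.10).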

How the data were processed

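RNA of single tumours and livers was hybridised in 1 colour to mouse 44K arrays of 60-base probes. Per the file headers the deposited intensity is the processed signal of Agilent Feature Extraction (version 10.7.3.1, per the submitters' processing notes), with background removed and outlier spots and spots well above background marked. A deposited series table holds the authors' log2 values of the same arrays, which matched within a median of 0.00247, and served as an alternative.

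The log2 of the processed signal minus the 75th percentile over non-control probes was computed for each array. Spots marked as outliers were left out and replicate spots were averaged, after which 969 values of a probe on an array were missing. Of 39429 probes 30397 were kept, those that 4 or more of the 21 arrays showed well above background. One probe per gene, that with the highest mean signal, gave 23526 genes. Among genes with another kept probe, at least 1 other probe had the opposite sign for 248 of 1251 called higher. This was so for 339 of 1952 called lower and for 11 of 95 named genes. Names came from RefSeq by accession for 26761 and 102 probes (main and other accessions), by symbol for 4369, and from the files for 8197. Group means of 4 groups over 18 mice were fitted with limma 3.58.1 in R 4.3.3 and p-values adjusted with the Benjamini-Hochberg method. Tumours of 1 mouse were averaged. Probe coordinates are mm9, per the file headers. The number of arrays limits the precision.

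Named genes were the 15 highest and 15 lowest differences among called genes without overlap, the 10 smallest adjusted p in each direction with at least 4-fold, the smallest adjusted p in each direction of each list (up to 2, or 1 for families), the 8 called genes with the widest range over KO tumours, and 8 genes always given. Members and lists were chosen with earlier results of these data known. On simulated data of 23526 genes for this comparison, 36 of 50 genes lowered by 2 log2 units, 35 of 50 raised by 2, 13 of 50 lowered by 1, 16 of 50 raised by 1 and 7 of 23326 unchanged genes were called. Some genes that this rule names are not reported here.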

Additional observations from a re-analysis of the deposited data

Results flagged for a closer look

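In 5 of 110 groups of mice tested, 1 mouse lay far from the others of its group by Dixon's test, where chance gives about 1 in 20. KO tumour mouse 4 was the low one for Gabrp at −2.82, for Krt19 at −3.98, and the high one for Pxmp2 at 2.25. KO liver mouse 4 stood apart for Gpc1 at −1.20 and for Krt20 at −7.39, where no KO liver array was above background. KO tumour mouse 4 was also on the later slide and had 2 of 3 Y-linked genes above background, and the part of either in these values was not tested.

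The genes with the highest and lowest differences between KO tumours and KO livers, and the genes always given, were set against the difference between DEN tumours and WT livers. The 2 differences differed past the threshold for 33 of 37 genes, beside 30.9% of all genes. Most of the 37 were picked for the size of the KO difference, which favours a larger KO than DEN difference, so the count and the signs are a description and support nothing. Each value below is the first difference minus the second, in log2 units, from limma. Among genes that rose in KO tumours it was 12.06 for Gp2, 11.54 for Reg3g, 11.26 for Dmbt1, 10.33 for Lbhd2, 9.67 for Reg3b, 9.43 for Guca2b, 8.80 for Umod, 8.05 for Wfdc18 and 7.80 for Mmp7. Smaller positive values were 7.06 for Gabrp, 7.04 for Scube3, 6.55 for Ccl8, 6.09 for Epcam, 5.86 for Eps8l3, 5.59 for Krt20, 4.72 for AA467197, 4.45 for Krt7, 3.62 for Mki67 and 2.48 for Sox9. Among genes that fell in KO tumours it was −12.99 for Cyp2b13, −12.44 for Sult2a4, −11.87 for Sult2a3, −10.77 for Cyp2b10, −10.20 for Hao2, −9.78 for Cyp2a22 and −7.80 for Hamp2. Nearer to 0 were −7.32 for Ppp1r3g, −4.97 for Sult2a7, −4.76 for Upp2, −4.06 for Mup6, −3.52 for Lrtm1, −2.68 for Alb and −2.43 for Hnf4a. The adjusted p ran from 2.7e-06 for Reg3g to 0.049 for Mup6. KO livers and WT livers lay on different slides, and the part of the slides in these values was not tested.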

How the results depend on the processing

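The main comparison gave 5078 genes higher and 6954 lower in KO tumours. With the slide as a random block the counts were 2874 and 3728. Restricted to genes above background on every array of both groups, an alternative chosen after seeing the data, 3084 of 14549 genes were higher and 5823 lower. With no filter on dim probes 11415 of 30161 genes were lower and 5081 higher. Leaving out 1 mouse at a time gave 4484 to 5455 higher and 6150 to 7280 lower. Among the 381 named genes the mean of all probes turned the sign of Tpm1 to 0.051, Tnfrsf9 to 1.07 and Adamts8 to 0.29, and quantile scaling turned H2-K1 to 0.17 and Fn1 to 0.36; the cause was not tested. The slide block lost the call of 56 of the 381 and quantile scaling that of 22. No paired analysis was possible because no label ties a tumour to a liver. No slide held both groups, so slide and group cannot be told apart. Dim probes have a bound in place of a fold: no KO liver array was above background for 1486 genes that rose, and no KO tumour array for 310 that fell. A gene dim in every KO liver and kept through tumour arrays leans towards a call of higher. Shares called higher in lists with many such genes follow in part from the filter.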
